A study of Homo sapiens with 12 samples.

Results

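A375 melanoma cells carrying YAP-S127A, a form of human YAP in which a serine phosphorylated by the LATS kinases is an alanine, were compared with A375 cells carrying YAP-S94A,S127A, which has that same change together with an alanine at a serine that contacts TEAD proteins. The members were taken from GEO's sample labels, which gave 3 libraries of YAP-S127A and 3 of YAP-S94A,S127A, together 6 of the 12 libraries of the series. A375 is an established human melanoma line, labelled as hypotriploid, and every group was infected with an MSCV-IRES-Hygro retrovirus and selected in hygromycin, also the empty-vector Control and the YAP-S127A,S381A groups, which are used here only for comparison. The 3 libraries of a group are separate platings of 1 stably transduced population. The construct and the particular infected population therefore cannot be told apart, and the p-values below measure the spread between platings. Total RNA was taken from cells grown on plastic, and the measured quantity is the FPKM, the fragments assigned to a gene locus scaled to the length of its transcript and to the size of the library.

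YAP is a coactivator with no DNA-binding domain of its own, and in the nucleus it works mainly by binding TEAD1 to TEAD4, which recognise a short DNA element and bring YAP to enhancers and promoters. The Hippo kinases MST1, MST2, LATS1 and LATS2 oppose this by phosphorylating YAP, which is then held in the cytoplasm by 14-3-3 proteins or degraded. The alanine at the LATS site makes the protein escape much of this control, while the alanine at the TEAD contact leaves the protein expressed but weakens its binding to TEADs. In melanoma, YAP and its paralog TAZ are known for their roles in invasion and metastasis.

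The 2 altered codons are shown in the reference coding sequence of YAP1, because the first of them is the only designed difference between the groups. Both windows were read from the GENCODE transcript of the GRCh37 assembly on the plus strand, with the serine codon in capitals. The sequence of the transgenes themselves was not analysed here. The serine of S94A lies in exon 1 (chr11:101981823-101981897) and that of S127A in exon 2 (chr11:101984896-101984970).
S94A codon, altered in YAP-S94A,S127A alone: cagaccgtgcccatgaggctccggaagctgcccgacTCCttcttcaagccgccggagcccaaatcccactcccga
S127A codon, altered in both groups: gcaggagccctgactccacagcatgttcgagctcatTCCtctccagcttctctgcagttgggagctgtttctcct

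YAP1 itself (chr11:101981178-102104155, + strand, GRCh37) is given first, since it is the gene that the transgenes encode. With YAP-S127A its 3 values were 159, 159 and 187 FPKM, and with YAP-S94A,S127A they were 151, 149 and 162. The 2 groups overlapped, and the total YAP1 level cannot tell the 2 constructs apart. The Control libraries had 34.1, 33 and 172, so 1 Control library lay at the level of the YAP-expressing cells. In the comparison of YAP-S127A with YAP-S94A,S127A, that library, Control replicate 3, enters through the shared spread and the filter on low values, and it is also part of each Control mean given below. Endogenous and viral YAP1 RNA cannot be told apart in these values.

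Of the genes for YAP's partners and its paralog, TEAD3 and TEAD4 were higher and WWTR1 lower in YAP-S127A, while TEAD1 and TEAD2 did not pass the test. TAZ, the paralog encoded by WWTR1, had an FPKM of 164, 163 and 155 with YAP-S127A and 217, 197 and 224 with YAP-S94A,S127A, and was lower in all 3 YAP-S127A libraries (log2 fold change -0.40, SE 0.07, adjusted p = 0.00378). TEAD4 had 29, 29.3 and 33.8 against 20.3, 19.6 and 17.7 and TEAD3 had 4.74, 4.78 and 5.21 against 2.99, 2.91 and 3.23, without overlap in either gene. TEAD4 rose 1.6-fold (adjusted p = 0.000253) and TEAD3 rose 1.61-fold (adjusted p = 0.00183) by limma. TEAD1, the most widely expressed family member, was at 13.8, 13.1 and 12.8 against 13.7, 12.1 and 14.9, with a log2 fold change of -0.03 (95% interval -0.25 to 0.19). TEAD2 was at 7.12, 9.2 and 7.41 against 11.4, 8.45 and 8.48 (95% interval -0.48 to 0.03, adjusted p = 0.251). For each of TEAD3, TEAD4 and WWTR1 the two-sided exact permutation test over the 6 libraries gave p = 0.1, the smallest that 3 against 3 allows, while TEAD1 and TEAD2 gave p = 0.8 and 0.3.

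**Figure D1:**
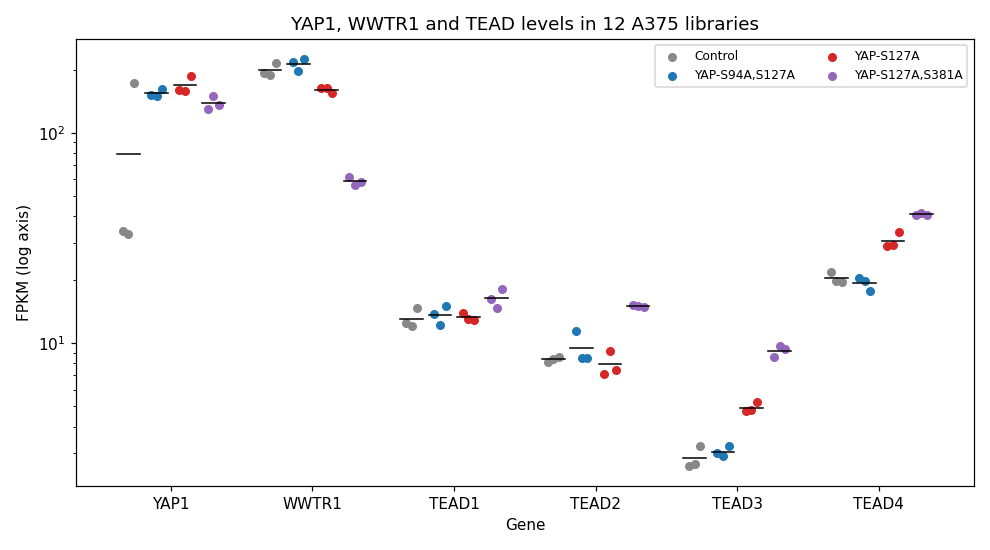
FPKM on a log axis of YAP1, WWTR1 and the 4 TEAD genes in each of the 12 libraries, coloured by group, with the group mean as a bar. YAP1 overlapped between YAP-S127A and YAP-S94A,S127A, TEAD3 and TEAD4 were higher and WWTR1 lower in every YAP-S127A library, and 1 Control library lay apart from the other 2 for YAP1.

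Across the table, 382 of 15055 tested loci were higher in YAP-S127A (2.54% of loci tested) and 143 lower (0.95%), counting a locus where the adjusted p was under 0.05 and the group mean FPKM differed more than 2-fold, together 3.49% of loci. Past the adjusted p alone there were 958 higher (6.36%) and 649 lower (4.31%), 10.7% of loci together. The shares of 6.36% and 4.31% are the background for every list count below. The median log2 fold change over all loci tested was -0.01, so the groups were centred alike. Over all tested loci, the libraries of the 2 groups did not overlap in 15.2% (higher) and 14.2% (lower). All 382 loci called higher and all 143 called lower were among these. For a called locus, a statement below that the groups were separate therefore adds nothing to the call. For loci not called, the 2 shares are the background of such statements. Many called loci were low in 1 group: of the 382 that rose, the mean FPKM was under 1 in YAP-S94A,S127A in 234 and under 1 also in YAP-S127A in 89, and of the 143 that fell, it was under 1 in YAP-S127A in 80. More than 4-fold differences were found in 194 of the loci that rose and 35 of those that fell. Some low loci passed the filter through the other groups, and with the filter set on the 6 libraries compared 269 loci were higher and 141 lower. At the fold limit, FTH1P3 lay just inside with a log2 ratio of 1.002 and KIAA1522 just outside with 0.9985.

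**Figure D2:**
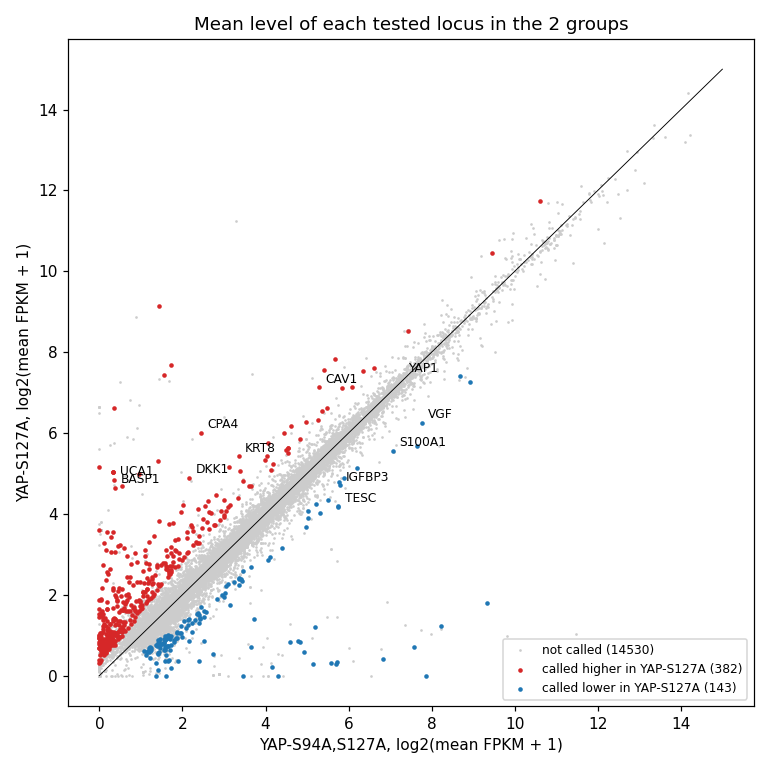
Mean level of each of the 15055 tested loci in YAP-S94A,S127A (horizontal) and YAP-S127A (vertical), both as log2(mean FPKM + 1), with the 382 loci called higher in red and the 143 called lower in blue. YAP1 sits near the diagonal, and many red points start from levels near 0 on the horizontal axis.

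Genes long known as TEAD targets rose together. Of the CCN family of secreted matrix proteins, 3 of the 4 tested members were higher and 0 lower past the adjusted p (0 lower at an unadjusted p under 0.05), with a median log2 fold change of 1.17. CTGF, also named CCN2, was at 26.6, 23.5 and 24.3 FPKM in YAP-S127A and 9.94, 12.8 and 10.9 in YAP-S94A,S127A. The groups did not overlap, and CTGF rose 2.21-fold (log2 fold change 1.08, SE 0.10, adjusted p = 8.43e-05, limma). CYR61, also named CCN1, was at 41.7, 39.3 and 36.1 against 17, 14.8 and 13.1 (log2 fold change 1.33, SE 0.16, adjusted p = 0.000369); its locus in the deposited table also carries the clone AL832891. NOV, the CCN3 protein, was at 7.08, 5.33 and 5.4 against 1.89, 2.3 and 1.5 (log2 fold change 1.26). WISP3 was at means of 1.96 ± 0.372 and 1.89 ± 0.0821 (SD, n = 3), with a log2 fold change of 0.03. ANKRD1, a nuclear ankyrin repeat protein widely used as a YAP reporter gene, was at 4.24, 4.09 and 3.67 against 0.545, 1.39 and 0.722 and rose 4.51-fold (adjusted p = 0.00195). The Control means of CTGF, CYR61 and ANKRD1 were 12.5, 16.9 and 0.744 FPKM, close to the YAP-S94A,S127A means of 11.2, 14.9 and 0.887.

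The promoters of some of these genes hold the core TEAD element GGAATG, or CATTCC on the opposite strand. They are shown because the serine altered in YAP-S94A,S127A alone contacts TEAD proteins. TEAD binding itself was not measured. They come from RefSeq (GRCh38.p14, 250 bases before to 50 after the start of each gene) and run 5′ to 3′ along the gene's strand, cut to 40 bases on either side of the matches before the start; capitals mark the element.
CTGF, chr6:131951422-131951581, - strand: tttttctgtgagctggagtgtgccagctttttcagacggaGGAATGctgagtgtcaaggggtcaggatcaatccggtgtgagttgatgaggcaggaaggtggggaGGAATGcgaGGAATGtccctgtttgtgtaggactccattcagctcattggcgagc
ANKRD1, chr10:90921262-90921337, - strand: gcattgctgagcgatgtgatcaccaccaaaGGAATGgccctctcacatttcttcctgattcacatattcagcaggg
ANKRD1, chr10:90921170-90921255, - strand: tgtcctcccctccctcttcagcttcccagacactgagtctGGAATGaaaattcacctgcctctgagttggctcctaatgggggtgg
AJUBA, chr14:22976856-22976941, - strand: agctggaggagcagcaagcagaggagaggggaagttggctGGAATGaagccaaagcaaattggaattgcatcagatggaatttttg
CPA4, chr7:130292987-130293072, + strand: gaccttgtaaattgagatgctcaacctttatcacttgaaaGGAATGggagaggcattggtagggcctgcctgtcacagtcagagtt
CTGF held 3 matches and ANKRD1 2 in the whole window, and AJUBA and CPA4 held 1 each. Matches before the start were also found for genes that fell, among them SOD3, FGF1 and IGFBP5. Of all 27305 promoters in the table, 3899 (14.3%) held a match on either strand, and of the 9787 found for tested named loci (79.8% of these), 1068 (10.9%) did. A promoter was found for 229 of the 317 named loci called higher (72.2%), and 42 of these (18.3%) held a match. For named loci called lower, 47 of the 64 had a promoter (73.4%), and 4 of these (8.51%) held a match. Promoters were missing more often for called loci, so these shares are description only. Their difference was not tested. A match describes the letters and does not show binding.

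Several of the loci with the largest rises went from near absence to clear expression. The long noncoding RNA UCA1 (chr19:15939016-15947138, + strand, GRCh37) had 29.6, 28.4 and 25.2 FPKM in YAP-S127A and 0.43, 0.0733 and 0.336 in YAP-S94A,S127A. The groups lay far apart, a 99.1-fold difference of means (log2 fold change 4.5, SE 0.14, adjusted p = 4.95e-08, limma). BASP1 (chr5:17065707-17276952, + strand), a membrane-associated protein of growth cones, was at 25.1, 25.4 and 21.7 against 0.255, 0.333 and 0.284 and had the smallest p of the named loci (log2 fold change 4.28, SE 0.08, adjusted p = 4.85e-10). KISS1 (chr1:204159469-204165619, - strand), which encodes kisspeptin and was first described as a metastasis suppressor of melanoma, was at 27.9, 21.3 and 25.4 against 0.38, 0.786 and 0.227 (adjusted p = 3.66e-07). CPA4, a secreted carboxypeptidase (chr7:129932974-129964020, + strand), was at 69.6, 59.1 and 61.4 against 3.73, 5.69 and 4.04, a 14.1-fold rise (adjusted p = 1.29e-07). No YAP-S127A library of these genes came near any YAP-S94A,S127A library.

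Several of the other largest rises encode secreted or surface proteins. DKK1, a secreted Wnt antagonist (chr10:54074041-54077802, + strand), was at 35.6, 23.9 and 27.1 against 3.24, 3.55 and 3.66 FPKM (log2 fold change 2.72, SE 0.16, adjusted p = 3.4e-06). ESM1, a proteoglycan of activated endothelium, was at 11.8, 13.4 and 7.22 against 0.224, 0.265 and 0.308. NPPB, the precursor of B-type natriuretic peptide, was at 9.12, 6.42 and 7.24 against 0.261, 0.116 and 0, with 1 library listed at 0. MME, the neutral endopeptidase CD10, was at 12.3, 11.3 and 6.03 against 0.358, 0.117 and 0.139, and ALPP, placental alkaline phosphatase, at 7.49, 5.61 and 10.6 against 0.463, 0.579 and 0.517. In each of these genes the lowest YAP-S127A library stood above the highest YAP-S94A,S127A library, with folds of 40.7 for ESM1, 60.4 for NPPB, 48.2 for MME and 15.2 for ALPP. Intracellular proteins were also among them: SH3GL2, an endophilin of synaptic vesicle uptake, rose by a log2 fold change of 3.13, UNC13D, a factor of granule release, by 2.74, and TGM1, a transglutaminase of the epidermis, by 2.64. MARCH4, a membrane-bound ubiquitin ligase, was not of the 15 largest rises. It went from a mean of 0.0393 to 3.5 FPKM, an 89.1-fold difference of means that the pseudocount of 1 reduces to a log2 fold change of 2.11 (adjusted p = 4.95e-08, limma). C19orf33 (log2 fold change 3.92), COL1A1 (2.77) and VSTM1 (2.4) complete the 15.

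**Figure D3:**
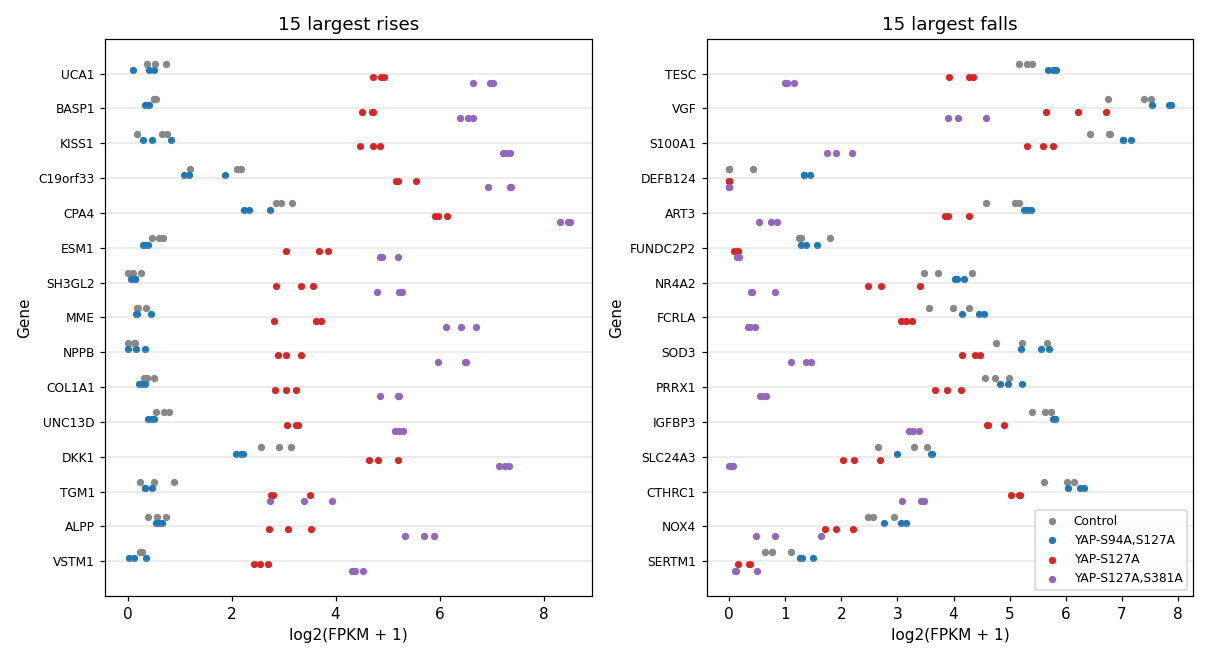
Level of the 15 loci with the largest rise (left) and the 15 with the largest fall (right) between YAP-S94A,S127A and YAP-S127A, as log2(FPKM + 1), with 1 point per library for all 4 groups. The red YAP-S127A points do not overlap the blue YAP-S94A,S127A points in any row, since the loci were chosen so, and Control points lie near the blue ones for most loci.

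Hippo pathway genes rose with YAP-S127A in many cases and passed the test as lower in none. Of the Hippo kinases, scaffolds and junctional regulators, 13 of the 27 tested members were higher and 0 lower past the adjusted p (1 lower at an unadjusted p under 0.05), with a median log2 fold change of 0.33, against 6.36% of all loci higher. AJUBA, a LIM protein that inhibits LATS kinases at junctions, was at 21.5, 20.9 and 21 FPKM against 4.47, 7.99 and 5.67 (log2 fold change 1.68, SE 0.14, adjusted p = 3.71e-05). Its relative WTIP was at 5.16, 4.6 and 5.14 against 1.1, 0.977 and 1.13 (log2 fold change 1.53, SE 0.11, adjusted p = 1.08e-05), and LIMD1, the third member of that family, rose by 0.52. These LIM proteins act in the opposite sense to the kinases they bind, so the list holds both inhibitors and activators of YAP.

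Among the scaffolds, WWC1 (the protein KIBRA, an activator of LATS) was at 3.71, 3.74 and 4.3 against 1.2, 1.23 and 0.905, and AMOTL2, an angiomotin that tethers YAP at junctions, was at 51.7, 40.3 and 54.2 against 24.2, 20.6 and 22. Neither overlapped between the groups, with adjusted p = 0.000139 for WWC1 and 0.000244 for AMOTL2. Smaller rises were seen for LATS2 (log2 fold change 0.62), NUAK2 (0.68), FJX1 (0.71), WWC2 (0.42) and SAV1 (0.40). NF2, which encodes Merlin, rose by 0.70 (no longer past the threshold without YAP-S94A,S127A replicate 1 or 3, adjusted p = 0.0631 to 0.0702). WWC3 rose by 0.56 (no longer past the threshold without YAP-S127A replicate 3 or YAP-S94A,S127A replicate 1 or 2, adjusted p = 0.0526 to 0.0735) and PTPN14 by 0.33 (no longer past the threshold without YAP-S127A replicate 1 or 3 or YAP-S94A,S127A replicate 1 or 3, adjusted p = 0.0624 to 0.101). LATS1 had a log2 fold change of -0.16 (95% interval -0.35 to 0.04), AMOT of -0.01 (-0.18 to 0.17) and AMOTL1 of -0.18 (-0.42 to 0.05), and none passed the adjusted p. MST1, encoded by STK4, was at 0.07 (-0.03 to 0.18), and the difference between paralogs was not tested.

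**Figure D4:**
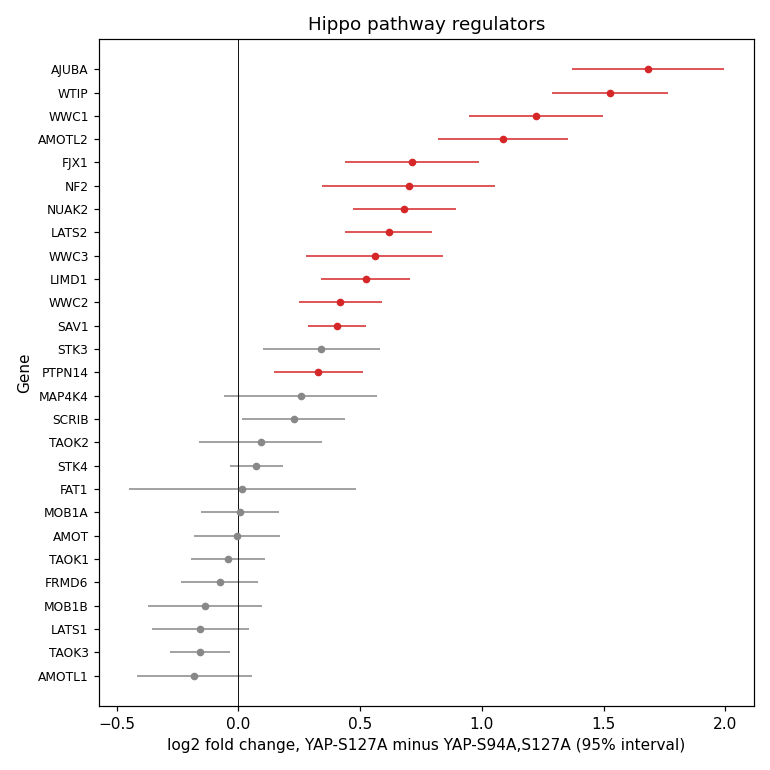
Log2 fold change of each of the 27 tested Hippo regulators, YAP-S127A minus YAP-S94A,S127A, on the log2(FPKM + 1) scale with its 95% interval from limma; red marks the 13 past the adjusted p. AJUBA, WTIP, WWC1 and AMOTL2 stand at the top, above 1, and no interval of a red point reaches 0.

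AP-1 factors, which bind DNA beside TEADs at many enhancers, split by member. In this list 3 of the 13 tested members were higher and 1 lower past the adjusted p, with a median log2 fold change of 0.28 (1 lower became 2 without YAP-S94A,S127A replicate 2). FOSL2 was at 8.47, 9.9 and 9.48 FPKM against 1.97, 3.13 and 2.54 (adjusted p = 2.22e-05) and JUN at 13.2, 11.3 and 12.3 against 3.64, 4.05 and 3.2 (adjusted p = 3.86e-06), both without overlap. FOSL1, the FRA1 protein, had a log2 fold change of 0.64 (adjusted p = 0.0109; no longer past the threshold without YAP-S94A,S127A replicate 3, adjusted p = 0.0502). JUNB fell, from a mean of 51.1 ± 2.29 to 37.2 ± 3.22 (SD, n = 3; adjusted p = 0.00559). FOS was at 3.22, 2.05 and 3.19 against 6.82, 2.68 and 5.85 and did not pass the adjusted p (0.182).

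Growth factor receptors and their ligands were among the members that rose. Of the receptor tyrosine kinases, 7 of the 22 tested members were higher and 1 lower past the adjusted p, with a median log2 fold change of 0.14. AXL, a receptor of GAS6 linked with invasive melanoma states, was at 89.4, 95.6 and 94.3 against 36.2, 43 and 40.8 (log2 fold change 1.2, SE 0.08, adjusted p = 5.43e-06). EGFR was at 16.6, 13.1 and 10.9 against 4.36, 5.67 and 3.93, in a locus that also holds the sequence GU228584, and EPHA2, an ephrin receptor, was at 86.4, 91.5 and 113 against 33.9, 51.5 and 44.7. The groups were separate for all 3 receptors, with folds of 2.33, 2.91 and 2.23 in that order. EPHA3 went the other way, from 27.6 ± 2.67 to 15.7 ± 1.64 (SD, n = 3; adjusted p = 0.000868). Of the EGF family ligands, NRG1, which activates ERBB3 and ERBB4, was at 7.16, 7.04 and 6.19 against 0.662, 0.479 and 0.609 (adjusted p = 3.66e-07) and HBEGF rose by 0.78, whereas TGFA fell by 0.76 on the log2 scale (adjusted p = 0.000651); 6 ligands were tested.

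Secreted factors of vessels and of the immune system moved in both directions. Of the angiogenic and vasoactive factors, 8 of the 17 tested members were higher and 3 lower past the adjusted p, with a median log2 fold change of 0.17. Beside ESM1 and NPPB above, PDGFA rose by 1.11 and the matrix glycoprotein THBS1 by 1.18, while ANGPTL2 had a log2 fold change of -0.77 and FGF1 of -0.61. Of the cytokines and chemokines, 3 of the 15 tested members were higher and 2 lower past the adjusted p, with a median log2 fold change of -0.02 (2 lower became 0 to 1 without YAP-S127A replicate 1 or 3 or YAP-S94A,S127A replicate 1, 2 or 3). IL18 was at 3.2, 1.9 and 2.48 against 0.0898, 0.0161 and 0.296 FPKM, CCL2 at 6.51, 3.23 and 7.21 against 1.43, 1.9 and 1.49, and CSF1, the macrophage growth factor, rose by 0.84. All 3 were separate between the groups. IL1A fell by 0.60 (no longer past the threshold without YAP-S127A replicate 3 or YAP-S94A,S127A replicate 2, adjusted p = 0.0557 to 0.0601) and CXCL3 by 0.91 (no longer past the threshold without YAP-S127A replicate 1, 2 or 3 or YAP-S94A,S127A replicate 1, 2 or 3, adjusted p = 0.0581 to 0.0861).

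Ligands and antagonists of the morphogen pathways were among the members that changed. Of the Wnt pathway genes, 5 of the 23 tested members were higher and 0 lower past the adjusted p (3 lower at an unadjusted p under 0.05), with a median log2 fold change of 0.12 (5 higher became 3 without YAP-S127A replicate 1 or YAP-S94A,S127A replicate 2 or 3, and 0 lower became 1 without Control replicate 3 or YAP-S94A,S127A replicate 2). WNT7A was at 1.13, 1.25 and 0.852 against 0, 0.0381 and 0, nearly absent in YAP-S94A,S127A, and FZD2, a Wnt receptor, rose by 0.72. WNT7A met the filter of 1 FPKM in 3 libraries only with libraries of the other groups. Of the TGF-beta and activin genes, 3 of the 23 tested members were higher and 3 lower past the adjusted p, with a median log2 fold change of 0.02 (3 lower became 1 without YAP-S94A,S127A replicate 2 or 3). FSTL3, a secreted activin inhibitor, was at 27, 27.1 and 27.6 against 9.32, 10.8 and 9.65 (log2 fold change 1.37, SE 0.09, adjusted p = 5.32e-06), and PMEPA1, a feedback inhibitor of TGF-beta signalling, was at 21.3, 20.1 and 22.6 against 41.2, 38.3 and 44.2 (log2 fold change -0.92, SE 0.08, adjusted p = 4.34e-05). Of the BMP pathway and ID genes, 5 of the 20 tested members were higher and 2 lower past the adjusted p, with a median log2 fold change of 0.00 (5 higher became 3 without YAP-S94A,S127A replicate 1, and 2 lower became 1 without YAP-S127A replicate 1 or 3 or YAP-S94A,S127A replicate 2), led by GDF15, a stress-induced member of the TGF-beta family, at 11, 16.2 and 12.4 against 1.17, 2.48 and 1.51, and by CRIM1, a membrane antagonist of BMPs, which rose by 1.08. Of the Notch genes, 4 of the 16 tested members were higher and 3 lower past the adjusted p, with a median log2 fold change of -0.04. Of the axon guidance genes, 12 of the 31 tested members were higher and 0 lower past the adjusted p (1 lower at an unadjusted p under 0.05), with a median log2 fold change of 0.15. SEMA3F, a repulsive semaphorin, was at 5.88, 6.16 and 5.37 against 1.57, 1.19 and 1.15 and SEMA3A at 9.67, 9.86 and 7.35 against 3.82, 4.3 and 4.01.

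Many genes of the actin cytoskeleton and of cell adhesion rose. Of the actin and SRF target genes, 14 of the 34 tested members were higher and 0 lower past the adjusted p (0 lower at an unadjusted p under 0.05), with a median log2 fold change of 0.26. TPM1 (tropomyosin) was at 81.5, 70.3 and 83.6 against 34.8, 39.6 and 38 and CNN2 (a calponin) at 55.8, 52.3 and 54 against 26.4, 29.5 and 25.6. Neither overlapped between the groups, and their folds were 2.09 and 1.99. ACTB, often used for normalization, was also higher (log2 fold change 0.46, adjusted p = 0.0102), the only one of the 14 housekeeping genes tested that passed. Of the focal adhesion adaptors, 7 of the 23 tested members were higher and 0 lower past the adjusted p (1 lower at an unadjusted p under 0.05), with a median log2 fold change of 0.20 (7 higher became 4 without YAP-S127A replicate 3 or YAP-S94A,S127A replicate 1 or 3), among them VCL, vinculin, at 36.2, 35.5 and 33.9 against 24.1, 22.5 and 23.3. Of the caveolar coat genes, 3 of the 7 tested members were higher and 0 lower past the adjusted p (0 lower at an unadjusted p under 0.05), with a median log2 fold change of 0.27. The CAV1 locus, which the deposited table joins with CAV2, was at 150.0, 129 and 138 against 32.8, 44.2 and 37.7 (log2 fold change 1.84, SE 0.10, adjusted p = 2.22e-06).

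Integrins and cadherins moved by member. Of the integrins, 2 of the 17 tested members were higher and 4 lower past the adjusted p, with a median log2 fold change of -0.14 (4 lower became 2 without YAP-S127A replicate 3 or YAP-S94A,S127A replicate 1 or 2). ITGB4, the hemidesmosomal laminin receptor subunit, was at 12.2, 12.3 and 13.8 against 2.29, 2.61 and 2.31 (adjusted p = 5.43e-06). ITGB3, the beta subunit of the vitronectin receptor and measured jointly with C17orf57, was at 44.3, 70.6 and 61.6 against 100.3, 113 and 119 (adjusted p = 0.00436), and ITGA1, measured jointly with PELO, fell by 0.60. Of the cadherins, CDH6 was at 1.58, 1.56 and 1.68 against 0.0267, 0.0867 and 0.0475 and CDH4 at 1.48, 1.21 and 0.935 against 0.083, 0.0845 and 0.0461, both near 0 in YAP-S94A,S127A, and 3 of the 13 tested members were higher and 0 lower past the adjusted p (1 lower at an unadjusted p under 0.05), with a median log2 fold change of 0.04. CDH4 met the filter on low values only with libraries of the other groups.

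Matrix genes were likewise mixed. Of the collagens, 6 of the 21 tested members were higher and 3 lower past the adjusted p, with a median log2 fold change of -0.04 (3 lower became 1 to 5 without YAP-S127A replicate 1 or 3). COL1A1 was at 8.42, 7.28 and 6.11 against 0.204, 0.261 and 0.162 FPKM, and COL12A1, a collagen of fibril surfaces, at 11.8, 9.93 and 10.3 against 2.92, 3.63 and 3.32. Of the laminins and other glycoproteins, 6 of the 26 tested members were higher and 1 lower past the adjusted p, with a median log2 fold change of 0.20 (1 lower became 2 without YAP-S127A,S381A replicate 2). BGN (biglycan) was at 37.3, 36.3 and 31 against 8.29, 7.93 and 7.04, LAMA1 at 3.69, 2.79 and 1.58 against 0.0253, 0.0425 and 0.026, and TNC, tenascin C, fell by 0.54. COL1A1 is a fibroblast marker too, and 2 of 4 tested fibroblast markers were higher (1 without Control replicate 1, YAP-S127A replicate 1, 2 or 3, YAP-S94A,S127A replicate 1 or 3 or YAP-S127A,S381A replicate 3), with a summed level over all 9 of 57.8 to 59.2 FPKM in YAP-S127A and 43.3 to 52 in YAP-S94A,S127A. Other defining markers were near 0 in both groups, with mean FPKM of 0.0278 and 0.031 for COL1A2 and of 0.0288 and 0.00724 for COL3A1. Of the matrix proteases and inhibitors, 5 of the 24 tested members were higher and 3 lower past the adjusted p, with a median log2 fold change of -0.04. TIMP1 fell by 0.77 and HTRA1, a secreted serine protease, by 0.97. TIMP2 and ADAMTS12 rose, with log2 fold changes of 0.58 to 0.65 and 1.2 to 1.62 over the processing and library settings. Of the plasminogen and coagulation genes, 4 of the 18 tested members were higher and 3 lower past the adjusted p, with a median log2 fold change of -0.16 (4 higher became 2 without YAP-S127A replicate 1 or 2 or YAP-S94A,S127A replicate 1 or 3, and 3 lower became 5 without Control replicate 3), with F3, tissue factor, at 4.48, 4.25 and 3.39 against 1.13, 1.44 and 1.32 and SERPINE2 lower by 0.69.

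Several keratins of different kinds rose in these melanoma cells, a family noticed after the values were seen apart from KRT8. KRT8 was at 44.6, 43.3 and 37.7 FPKM against 8.71, 9.82 and 9.1 (log2 fold change 2.07, SE 0.09, adjusted p = 4.57e-07), and its partner KRT18 was at 383, 355 and 364 against 169, 175 and 168. KRT7 (1.43), KRT80 (1.71), KRT81 (1.63) and KRT86 (0.62) also rose, and 7 of the 10 tested keratins were higher and 0 lower by limma, also at an unadjusted p under 0.05. KRT81 and KRT86 are close paralogs, so reads could be divided between them. Of the 4 keratinocyte markers tested, 2 were higher and 0 lower past the adjusted p (0 lower at an unadjusted p under 0.05), namely SFN, a 14-3-3 protein, at 4.01, 4.03 and 5.32 against 0.505, 0.62 and 0.628, and KRT5, which stayed under 1 FPKM at 0.376, 0.193 and 0.346 against 0.00278, 0.0614 and 0 (adjusted p = 0.0428). The count became 1, with KRT5 losing its call (adjusted p = 0.0506 to 0.131), on leaving out any 1 of 10 libraries, which were all but YAP-S127A replicate 2 and YAP-S127A,S381A replicate 3. KRT5 met the filter on low values only through the YAP-S127A,S381A libraries. KRT14 was at 7.93, 6.25 and 10.9 against 7.0, 6.94 and 7.4, the defining markers KRT1, IVL and LOR were listed at 0 in both groups, and the 9 markers summed to 34.3 to 38.1 FPKM in YAP-S127A and 31.2 to 37.7 in YAP-S94A,S127A. The part of such cells in these rises was not tested.

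Among called loci that carry a single gene symbol and are no short RNA, ranked on the log2(FPKM + 1) scale, the 15 largest falls had log2 fold changes between -1.57 and -1.06, and the 15 largest rises between 2.4 and 4.5. Loci with several symbols could fall further, and the pseudocount lowers the rank of low genes. TESC (chr12:117476728-117537284, - strand), a calcium-binding protein, was at 14.2, 18.4 and 19.3 FPKM in YAP-S127A and 55.5, 50.1 and 53.6 in YAP-S94A,S127A. It came first of these 15, at 3.07-fold lower (log2 fold change -1.57, SE 0.11, adjusted p = 8.17e-06, limma). S100A1, another calcium-binding protein used as a melanoma marker (chr1:153600402-153604515, + strand), was at 38.6, 53.3 and 47.1 against 143, 129 and 129 (log2 fold change -1.52, SE 0.15, adjusted p = 9.9e-05), and VGF, a neuropeptide precursor (chr7:100805790-100808850, - strand), at 49.4, 104 and 73.1 against 184, 227 and 235. In each of the 3 the groups were separate, although the VGF libraries of YAP-S127A spread widely. IGFBP3, which binds insulin-like growth factors, was at 23.1, 28.8 and 23.5 against 53.5, 55.3 and 54.7 (log2 fold change -1.09, SE 0.10, adjusted p = 7.69e-05). PRRX1, a homeobox factor of mesenchyme, was at 11.7, 16.6 and 13.8 against 30.5, 27.6 and 36.1 (adjusted p = 0.000702).

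The rest of the 15 largest falls were enzymes, receptors and regulators of varied kinds. ART3 (log2 fold change -1.31) is an ADP-ribosyltransferase relative, SOD3 (-1.16) the extracellular superoxide dismutase, CTHRC1 (-1.08) a secreted matrix protein, FCRLA (-1.23) a B-cell gene also expressed in melanocytes, and NR4A2 (-1.23) an orphan nuclear receptor. NOX4, an NADPH oxidase, fell by 1.06 (no longer past the threshold without YAP-S127A replicate 1 or 2 or YAP-S94A,S127A replicate 1 or 3, adjusted p = 0.0779 to 0.101). SLC24A3, an ion exchanger, fell by 1.09 (no longer past the threshold without YAP-S127A replicate 1 or 2 or YAP-S94A,S127A replicate 1 or 3, adjusted p = 0.0522 to 0.0746). DEFB124, a defensin, was listed at 0 in all YAP-S127A libraries and at 1.71, 1.52 and 1.53 in YAP-S94A,S127A. Its Control libraries were at 0, 0 and 0.344, so Control lay with YAP-S127A. The Control mean was nearer to the YAP-S94A,S127A mean than to the YAP-S127A mean in 13 of these 15 falls, DEFB124 and SERTM1 being the exceptions, and in 15 of the 15 largest rises. These loci were chosen as extremes of the same 2 groups, and the share over all loci was not counted, so the counts are description only. FUNDC2P2, a pseudogene, and SERTM1 fell from means of 1.66 and 1.56 FPKM.

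Lineage, antigen presentation and signalling lists were checked for the identity of the line. The melanoma genes SOX10 (means 224 and 272 FPKM in YAP-S127A and YAP-S94A,S127A) and ERBB3 (90.1 and 113) were present in both groups, while TYR was listed at 0 and PMEL and MLANA stayed under 1 FPKM. Of the 8 tested melanoma line markers, 2 were higher and 2 lower past the adjusted p (2 higher and 4 lower at an unadjusted p under 0.05), with a median log2 fold change of -0.31, and the 11 markers summed to 740.0 to 893 FPKM in YAP-S127A and 1120 to 1130 in YAP-S94A,S127A. The 2 higher became 1 without YAP-S127A replicate 1, 2 or 3, YAP-S94A,S127A replicate 1 or 2 or YAP-S127A,S381A replicate 1. Neural crest and glial genes had 6 of 21 tested members higher and 3 lower (3 lower became 1 without YAP-S127A replicate 1 or YAP-S94A,S127A replicate 3), with SOX9 at 3.55, 4.36 and 2.66 against 0.261, 0.401 and 0.483 and L1CAM at 27.9, 30.8 and 38 against 7.77, 11.6 and 8.96. Of the ERK pathway output genes, 1 of the 22 tested members was higher and 5 lower past the adjusted p, with a median log2 fold change of -0.13 (5 lower became 2 to 3 without YAP-S127A replicate 1 or 3 or YAP-S94A,S127A replicate 1, 2 or 3). SPRY4 fell by 0.71 (no longer past the threshold without YAP-S94A,S127A replicate 2 or 3, adjusted p = 0.0588 to 0.0658) and EGR1 by 0.79 (no longer past the threshold without YAP-S127A replicate 3 or YAP-S94A,S127A replicate 1, adjusted p = 0.0604 to 0.0726). Of the MHC class II genes, 5 of 13 tested members were lower and 0 higher past the limma adjusted p (1 higher at an unadjusted p under 0.05), with HLA-DRA at 240.2, 247 and 273 against 372, 357 and 367 and CD74 at means of 757 ± 36.9 and 1011 ± 35 (SD, n = 3). Their median log2 fold change was -0.24. None of the 15 MHC class I genes tested passed the limma adjusted p (2 higher and 1 lower at an unadjusted p under 0.05). Leaving out YAP-S127A replicate 1 gave 1 higher, and leaving out YAP-S127A replicate 3 gave 1 lower. Of 8 leukocyte markers the defining PTPRC was listed at 0 in both groups, and 0 of the 2 tested passed limma's adjusted p (0 higher and 1 lower at an unadjusted p under 0.05), with sums over the list of 87.7 to 98.6 FPKM in YAP-S127A and 89.9 to 99.3 in YAP-S94A,S127A. Of the 7 endothelial markers only TIE1 was tested, and it was higher (log2 fold change 0.83), with sums over the list of 1.66 to 1.86 FPKM in YAP-S127A and 0.53 to 0.683 in YAP-S94A,S127A.

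Metabolic and cell cycle genes that passed the test differed by less than 2-fold, apart from SLC7A5. Of the DNA replication genes, 7 of the 38 tested members were higher and 0 lower past the adjusted p (0 lower at an unadjusted p under 0.05), with a median log2 fold change of 0.15 (7 higher became 3 without YAP-S94A,S127A replicate 3), and of the mitotic genes, 7 of the 36 tested members were higher and 0 lower past the adjusted p (0 lower at an unadjusted p under 0.05), with a median log2 fold change of 0.13 (7 higher became 2 to 3 without YAP-S127A replicate 1 or 3 or YAP-S94A,S127A replicate 1, 2 or 3); none of either list passed the 2-fold limit. MKI67, the antigen Ki-67, was at means of 37.4 ± 1.51 and 28.5 ± 0.804 (SD, n = 3) FPKM. Of the cholesterol genes, 7 of the 25 tested members were higher and 0 lower past the adjusted p (4 lower at an unadjusted p under 0.05), with a median log2 fold change of 0.15 (7 higher became 1 to 4 without YAP-S127A replicate 1 or 3 or YAP-S94A,S127A replicate 1, 2 or 3, and 0 lower became 1 without Control replicate 1, YAP-S127A replicate 1 or YAP-S94A,S127A replicate 2). Of the nuclear oxidative phosphorylation genes, 0 of the 59 tested members were higher and 5 lower past the adjusted p, with a median log2 fold change of -0.09 (5 lower became 1 to 11 without Control replicate 2, YAP-S127A replicate 1 or 2 or YAP-S94A,S127A replicate 1, 2 or 3, and 1 higher at an unadjusted p under 0.05). The lower share past the adjusted p was 8.47%, beside 4.31% of all loci. At an unadjusted p under 0.05 by limma, 21 of the 59 were lower, beside 1778 lower and 1983 higher of all 15055 loci. SLC7A5, an amino acid transporter, was at 202, 163 and 214 against 90.4, 106 and 91.8 and BCL2L1, a survival protein, rose by 0.77.

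Published sets of YAP genes were read the same way. Of the CORDENONSI_YAP set, 17 of the 44 tested members were higher and 0 lower past the adjusted p (1 lower at an unadjusted p under 0.05), with a median log2 fold change of 0.27, and of the WANG_YAP/TAZ set, 17 of the 22 tested members were higher and 1 lower past the adjusted p, with a median log2 fold change of 0.62, the exception being IGFBP3. Of the study's own YAP/TAZ Up genes, 59 of the 74 tested members were higher and 0 lower past the adjusted p (0 lower at an unadjusted p under 0.05), with a median log2 fold change of 0.72, and of its YAP/TAZ Down genes, 0 of the 50 tested members were higher and 11 lower past the adjusted p, with a median log2 fold change of -0.29 (11 lower became 7 without YAP-S127A replicate 1 or YAP-S94A,S127A replicate 1 or 3). The last 2 sets were selected in part on YAP-S127A,S381A libraries of this series, so their counts are not independent evidence of direction.

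**Figure D5:**
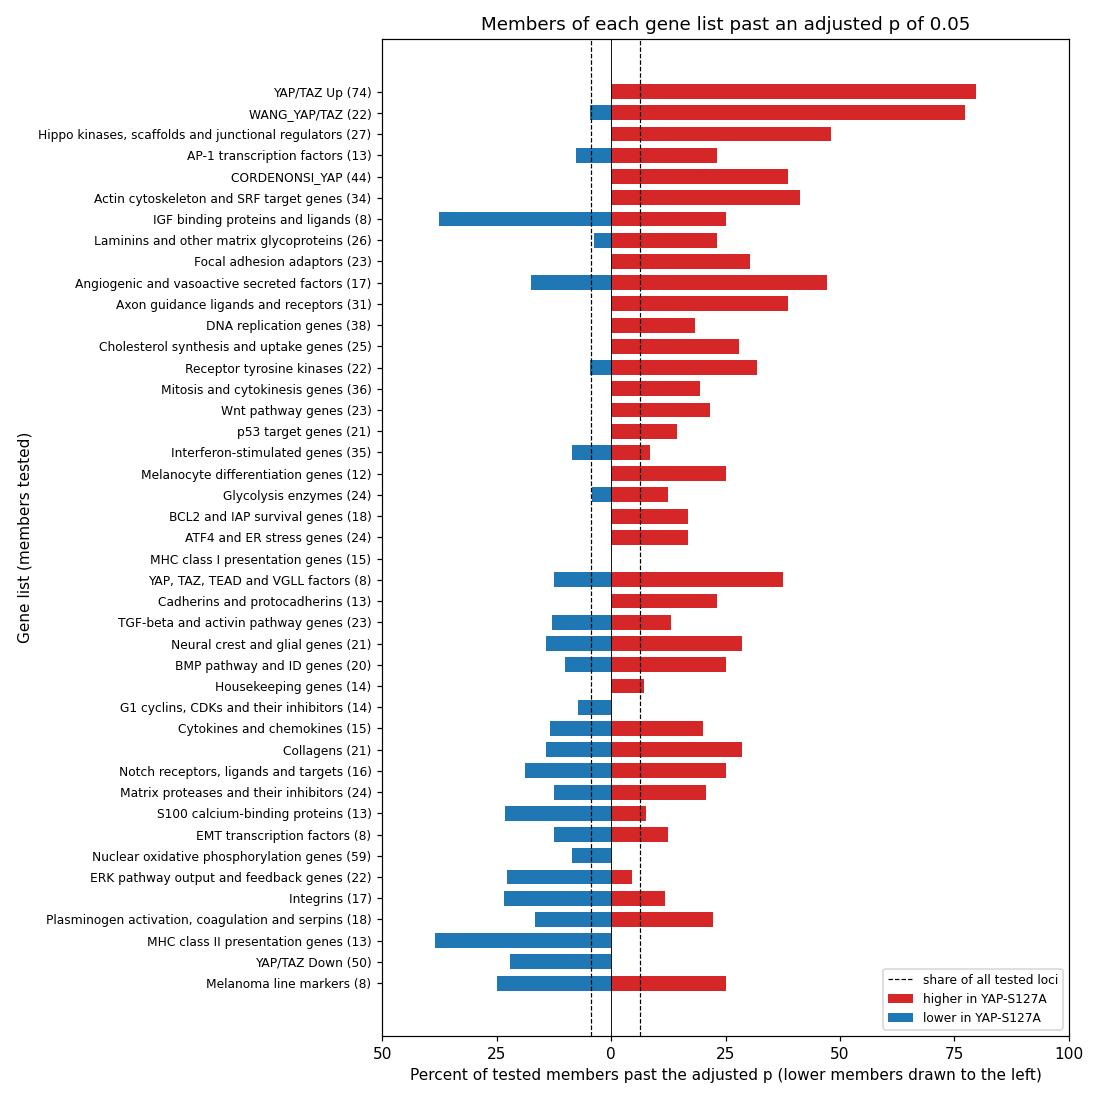
Share of the tested members of each gene list that were higher (right) or lower (left) in YAP-S127A past an adjusted p of 0.05, for lists with at least 8 tested members, ordered by median log2 fold change; dashed lines give the share among all loci, 6.36% and 4.31%. The Hippo regulators and the YAP gene sets extend far to the right of the dashed line, as do angiogenic factors, actin and SRF targets and axon guidance genes. The MHC class II genes and YAP/TAZ Down extend to the left. So do the IGF binding proteins, melanoma line markers, integrins, S100 proteins and ERK output genes.

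The groups that share no library with these 6 were compared as well. YAP-S127A,S381A against Control had 1143 loci higher (7.59% of loci tested) and 1184 lower (7.86%) at the same thresholds. Of the 382 loci higher here, 353 were also higher there (92.4% of these and 30.9% of those), and of the 143 lower here, 99 were also lower there (69.2% and 8.36%). Both contrasts use the same estimate of spread and the same filter. KRT5, for one, reached 1 FPKM in YAP-S127A,S381A libraries alone, so the filter itself favoured loci that rise there. With the filter set on the 6 libraries compared, 269 rather than 382 loci were higher, and their overlap was not counted. The share of 92.4% is therefore not an independent check. For UCA1 the 3 YAP-S127A,S381A libraries were at 98.4, 125 and 129.9 FPKM and for TESC at 1.23, 1.0 and 1.04, beyond the YAP-S127A libraries in both. Of the 3 loci called in opposite directions, SNORA56 and U2 are short RNAs and CUFF.11533.1 is an assembled locus.

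Not every call is a named gene. Of the 143 loci lower in YAP-S127A, 50 were assembled loci with no annotated symbol, 35% of the calls against 10.1% of the loci tested, and 17 were short RNA loci (11.9% against 2.17%). Of the 382 higher, 33 were assembled and 8 short. The short RNAs took between 4.16% and 5.49% of the summed FPKM in the 6 libraries compared. The small nucleolar RNA SNORD2 was at 749.7, 475 and 475 FPKM in YAP-S127A and 1.85, 0 and 3.32 in YAP-S94A,S127A, and the microRNA locus MIR3944 at 0, 0 and 0 against 20.3, 17.9 and 18.1. For SNORD2 the Control libraries were at 209, 237 and 391, nearer to YAP-S127A than to YAP-S94A,S127A. By limma, YAP-S127A minus Control had a log2 fold change of 1.04 (adjusted p = 0.326). YAP-S94A,S127A minus Control had one of -6.87 (adjusted p = 0.000162). For MIR3944 the Control libraries were at 0, 0 and 0, as in YAP-S127A. Both loci were chosen after their values were seen. Whether the preparation of the libraries had a part in these calls was not tested.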

How the data were processed

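Total RNA of A375 cells was sequenced from TruSeq libraries, 3 for each of 4 groups. Per the submitters' processing notes, bcl2fastq 2.15.0, Bowtie2 2.0.0, TopHat2 2.0.4 and Cufflinks 2.0.2 were used with the hg19 build, and the authors deposited 1 table of log2(FPKM + 1) values. Read depth is unknown, and FPKM summed to 790865 to 901558 per library. An FPKM of exactly 0 can be a failed estimate. Groups follow the sample titles, although the condition label of YAP-S127A,S381A adds S94A, and the time from plating to lysis differs between the series text and the paper's methods.

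Of 31588 entries, 31585 were distinct. The 15055 loci reaching 1 FPKM in 3 or more libraries were fitted in limma 3.58.1 (R 4.3.3), with trend, on log2(FPKM + 1) of the 12 libraries and a separate mean for every group, so a pseudocount of 1 understates changes of low genes. P-values were adjusted by Benjamini-Hochberg over all loci tested. A locus was called where this value was below 0.05 and mean FPKM differed over 2-fold. Exact permutation tests were two-sided. The fit was tested on simulated data. Alternatives were other pseudocounts, filters, scalings, library sets, blocks and thresholds. Named genes were YAP, TAZ and TEADs, up to 4 passing members per list and direction, and, among called single-symbol loci that were no short RNA and did not overlap between groups, the 15 largest rises and falls and the 10 smallest p in each direction. Members and lists were chosen with earlier results of these data known. Some genes are not reported here.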

Additional observations from a re-analysis of the deposited data

How the results depend on the processing

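No named locus changed direction under a processing alternative, though 173 of the 322 named loci changed their side of the adjusted p in at least 1 of them. With 1 library left out, TEAD1 turned from -0.03 to 0.0362 without YAP-S94A,S127A replicate 3 (range -0.104 to 0.0362) and KRT14 from 0.18 to -0.0123 without YAP-S127A replicate 3 (range -0.0123 to 0.347), neither being past the adjusted p. The 1607 loci past the adjusted p ranged from 961 (without YAP-S94A,S127A replicate 3) to 1576 (without Control replicate 3) and were 1022 without YAP-S94A,S127A replicate 1. Loci higher ranged from 316 to 380 and loci lower from 106 to 158. A filter of 5 FPKM left 242 higher and 56 lower, a 2-fold limit on the log2(FPKM + 1) scale 189 and 62, and no fold limit 958 and 649. At an adjusted p of 0.01, 83 were lower and 766 past it. Fitting the 6 libraries alone gave 1066 past the adjusted p. A replicate block gave 374 higher, 145 lower and 1771 past the adjusted p over all 12 libraries, and 233, 86 and 498 over the 6. The deviations of same-numbered libraries correlated at 0.0738, -0.00221 and -0.0826, so the numbers were not taken as pairs, and of the 3 numbers the libraries numbered 1 alone correlated best with each other. Of 8300 values of named loci under all alternatives, 893 were no longer past the adjusted p and 7 newly passed it. The cause of these changes was not tested. Read depth is unknown for FPKM values, so the precision it sets could not be given.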

Other observations

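Further gene groups were compared between YAP-S127A and YAP-S94A,S127A. Of the melanocyte differentiation genes, 3 of the 12 tested members were higher and 0 lower past the adjusted p (1 lower at an unadjusted p under 0.05), with a median log2 fold change of 0.08 (0 lower became 1 without YAP-S94A,S127A replicate 2). MLPH, a melanosome transport protein, was at 2.81, 2.3 and 2.05 against 0.37, 0.577 and 0.69 FPKM, and GPNMB, a melanosomal glycoprotein, rose by 0.72. Of the IGF binding proteins and ligands, 2 of the 8 tested members were higher and 3 lower past the adjusted p, with a median log2 fold change of 0.25. IGFBP4 was at 133, 131 and 150.2 against 50.9, 63.9 and 53.3 and IGFBP6 at 141, 123 and 157 against 64.3, 74.8 and 62.3, both higher and without overlap, while IGFBP5 fell by 0.90 and the RNA-binding protein IGF2BP3 by 0.56. Of the S100 proteins, 1 of the 13 tested members was higher and 3 lower past the adjusted p, with a median log2 fold change of -0.05, with S100A13 lower by 0.67.

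Of the interferon-stimulated genes, 3 of the 35 tested members were higher and 3 lower past the adjusted p, with a median log2 fold change of 0.09. These are 8.57% in each direction, beside 6.36% higher and 4.31% lower over all loci. IFITM2, a restriction factor, was at 37.2, 35.6 and 40.4 against 22.5, 20.1 and 20.3 and ISG20, an exonuclease, at 70.0, 78.9 and 76.9 against 121, 114 and 117. Of the EMT transcription factors, 1 of the 8 tested members was higher and 1 lower past the adjusted p, with a median log2 fold change of -0.09, which were FOXC2 (0.81) and PRRX1. Of the glycolysis genes, 3 of the 24 tested members were higher and 1 lower past the adjusted p, with a median log2 fold change of 0.07 (3 higher became 1 without YAP-S94A,S127A replicate 1). Their shares were 12.5% and 4.17%, beside the same background. Of the ATF4 and ER stress genes, 4 of the 24 tested members were higher and 0 lower past the adjusted p (1 lower at an unadjusted p under 0.05), with a median log2 fold change of 0.06 (4 higher became 2 without YAP-S94A,S127A replicate 1 or 3, and 0 lower became 1 without YAP-S127A replicate 2). Of the survival genes, 3 of the 18 tested members were higher and 0 lower past the adjusted p (1 lower at an unadjusted p under 0.05), with a median log2 fold change of 0.07 (3 higher became 1 without YAP-S94A,S127A replicate 3, and 0 lower became 1 without YAP-S94A,S127A replicate 1), and of the p53 targets, 3 of the 21 tested members were higher and 0 lower past the adjusted p (1 lower at an unadjusted p under 0.05), with a median log2 fold change of 0.09 (3 higher became 0 to 1 without YAP-S127A replicate 3, YAP-S94A,S127A replicate 2 or 3 or YAP-S127A,S381A replicate 1, 2 or 3). Of the G1 regulators, 0 of the 14 tested members were higher and 1 lower past the adjusted p, with a median log2 fold change of -0.02 (1 lower became 0 without YAP-S127A replicate 2 or 3 or YAP-S94A,S127A replicate 1 or 2), and 0 were higher by limma at an unadjusted p under 0.05. PKP2, a desmosomal plakophilin listed in the study's own YAP/TAZ Up genes, was at 6.62, 5.82 and 5.02 against 0.57, 0.71 and 0.839, and the transglutaminase TGM2 was at 60.6, 70.3 and 84.3 against 18.3, 27.6 and 24.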
